A study of Drosophila melanogaster with 2 samples.

Results

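The genes of the mitochondrial ribosome were followed through a map of the transcription factor Trachealess (Trh). They were taken by name, as every protein-coding gene whose symbol is mRpL or mRpS followed by a digit, which gave 73 of 13945 protein-coding genes. Of these, 47 encode proteins of the large subunit (mRpL) and 26 proteins of the small subunit (mRpS). Their spans were short, with a median of 909 bp, against 2166 bp over all protein-coding genes. The map came from chromatin immunoprecipitation and sequencing (ChIP-seq) with an antibody against GFP. The embryos were those of a transgenic Drosophila melanogaster line that stably expresses trh with GFP fused at its C-terminus, taken whole and with the sexes pooled at 0 to 24 h of age. There was 1 group, with 2 samples that the labels call biological replicates 1 and 3. No untagged group enters here, and a signal over whole embryos does not tell which cells it came from. The lists used here hold no expression values against which the labelled tissue could be checked.

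The mitochondrial ribosome translates the few proteins that the mitochondrial genome encodes, which are core subunits of the respiratory chain and of the ATP synthase. Its large subunit joins amino acids into the chain and its small subunit reads the messenger RNA. All of its proteins are encoded in the nucleus, made in the cytosol and imported, so a large number of nuclear promoters have to supply 1 particle. Trh is a basic helix-loop-helix PAS factor that pairs with Tango and is known for the development of the tracheae, the air tubes in which the fly carries oxygen. The core sequence ACGTG belongs to the sites of that pair.

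The strongest summits at the starts of these genes lay in short AT-rich stretches, most of them between 2 genes transcribed away from each other. The summit base with 50 bp on each side is shown for 8 of them, since it is the sequence under the signal that the results describe. They are the strongest summits at own starts apart from those of mRpL41 and mRpL34, which are not printed. Each runs 5′ to 3′ on the strand of the named gene, from the release 6 (dm6) genome of RefSeq, with the summit at the middle base. Capitals mark the sequence ACGTG, the sequence TATAAA or the sequence GAGAG on either strand.
mRpS10, chr3R:15229481-15229581, plus strand: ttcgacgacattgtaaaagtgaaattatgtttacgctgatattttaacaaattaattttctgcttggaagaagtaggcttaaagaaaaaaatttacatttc
mRpS23, chr2L:13835416-13835516, minus strand: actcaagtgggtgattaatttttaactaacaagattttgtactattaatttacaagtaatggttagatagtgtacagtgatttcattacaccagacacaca
mRpL23, chr3L:2373568-2373668, minus strand: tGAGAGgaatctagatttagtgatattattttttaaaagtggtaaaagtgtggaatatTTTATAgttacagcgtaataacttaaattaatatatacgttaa
mRpL24, chr2L:4945443-4945543, minus strand: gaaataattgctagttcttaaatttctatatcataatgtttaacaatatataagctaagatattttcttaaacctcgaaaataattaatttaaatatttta
mRpS2, chr2L:4850551-4850651, minus strand: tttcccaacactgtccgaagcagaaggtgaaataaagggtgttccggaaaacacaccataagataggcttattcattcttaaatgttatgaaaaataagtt
mRpS6, chr3L:4364359-4364459, plus strand: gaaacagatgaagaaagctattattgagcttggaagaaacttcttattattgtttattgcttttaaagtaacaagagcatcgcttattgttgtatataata
mRpL20, chr3L:13018080-13018180, minus strand: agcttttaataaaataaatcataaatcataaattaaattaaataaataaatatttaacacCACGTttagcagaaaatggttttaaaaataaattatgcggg
mRpS7, chr2L:10386410-10386510, plus strand: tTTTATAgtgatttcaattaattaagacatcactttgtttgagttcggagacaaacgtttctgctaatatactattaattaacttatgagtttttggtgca
The stretch at mRpL20 was the one with ACGTG, here read as CACGT on the gene's strand. TATAAA was found at mRpS7 and mRpL23, read as TTTATA, and GAGAG at mRpL23. The others printed held none of the 11 sequences searched, while the summits of mRpL41 and mRpL34 each held 1, GTATNTTT at mRpL41 and CGATA at mRpL34. mRpL4 is given as an example of a promoter with the element TATCGATA, the site of the factor DREF, which is known from promoters of growth and replication genes. Its promoter is given from 250 bp before to 50 bp after the gene start, with that element in capitals.
mRpL4 promoter, chr2L:16329083-16329382, minus strand: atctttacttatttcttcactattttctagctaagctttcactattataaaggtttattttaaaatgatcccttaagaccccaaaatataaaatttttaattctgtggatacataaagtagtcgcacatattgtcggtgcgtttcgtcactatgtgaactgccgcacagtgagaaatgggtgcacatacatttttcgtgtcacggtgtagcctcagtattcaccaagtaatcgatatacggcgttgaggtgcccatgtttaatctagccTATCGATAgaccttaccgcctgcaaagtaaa
The summit at mRpL4 lay at 16329249, 117 bp upstream of the start and 140 bp from this element.

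Peaks that the authors passed by the irreproducible discovery rate (IDR), a measure of how well ranks repeat between replicates, numbered 2322. Their signal value, a score given by the authors' peak caller, ran from 74.4 to 1016 with a median of 110.1. A weaker list called on the pooled replicates held 21025 peaks and contained all 2322. Signal values and ranks are used only within 1 list, and ranks quoted without a replicate are those of the pooled list. Any summit inside a gene's span, or up to 2000 bp to either side, was counted for that gene.

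By that rule 26 of the 73 mitochondrial ribosomal protein genes (35.6%) had a peak past IDR, against 22.4% of all protein-coding genes. The share was 18 of 47 (38.3%) for the large subunit and 8 of 26 (30.8%) for the small subunit. The exact 95% binomial intervals, which cover counting error only, were 24.5 to 53.6% for the large subunit and 14.3 to 51.8% for the small. They overlap widely, and a difference between the subunits was not tested. A further 38 genes had only weaker peaks of the pooled list, and 9 had none, so 64 of 73 (87.7%) had some peak, against 73.3% of all protein-coding genes. Because a window of this kind takes up more of a long gene, the same rule was applied to genes no longer than the median span, a choice made after the data were seen. Among those it gave 26 of 70 members (37.1%), against 16.0% of all genes of that length.

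Counting only summits within 500 bp of an annotated transcription start site (TSS) of the gene itself, 16 of 73 (21.9%) had a peak past IDR, against 11.8% of all protein-coding genes. These were 9 large-subunit genes (19.1%) and 7 small-subunit genes (26.9%). With the pooled list, 50 of 73 (68.5%) had a summit at an own start, against 41.0%. The other 10 genes with a peak past IDR had it only farther away, and each of those lay at the start of another gene. When every peak past IDR was given to the single protein-coding gene with the nearest TSS, 6 of 73 (8.22%) received one, below the 13.0% of all protein-coding genes. These 6 were mRpL41, mRpL23, mRpL4, mRpL37, mRpS6 and mRpL40, the last through a summit 14943 bp from its start. The order of members and background thus turned round with the way peaks were assigned. The order also turned round within 100 bp of an own start (1.37% of members, against 3.43%) and inside the gene span alone (1.37%, against 7.02%). Each of these member shares rests on 1 gene. The span rule also gives long genes more room, and members were short (median 909 bp, against 2166 bp).

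**Figure D1:**
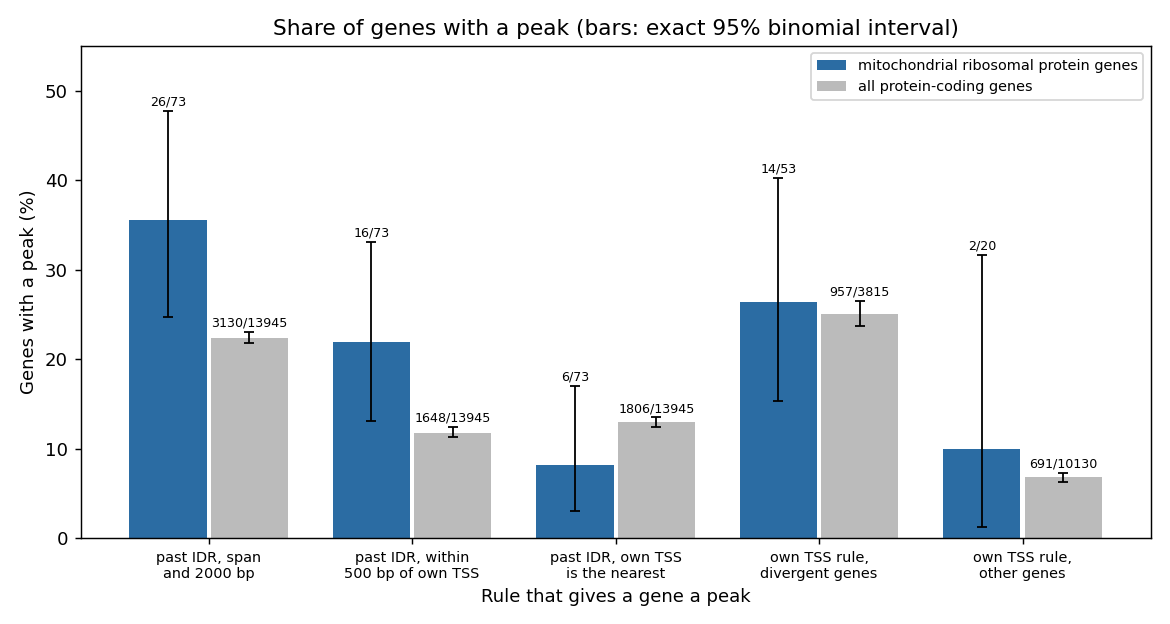
Percentage of genes with a peak past IDR under 5 rules, for the mitochondrial ribosomal protein genes (blue) and all protein-coding genes (grey), with counts above the bars and exact 95% binomial intervals for counting error. The members stand at 35.6 and 21.9% under the first rules, against 22.4 and 11.8%, but at 8.22% against 13.0% when a peak goes to the nearest start, and among divergent genes they are at 26.4% and the background at 25.1%.

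The arrangement of these genes sets them in pairs. A protein-coding neighbour that starts within 500 bp and is read in the opposite direction, called here a divergent neighbour, was found for 53 of 73 (72.6%), against 27.4% of all protein-coding genes. Among genes with a divergent neighbour, 14 of 53 members (26.4%) had a summit past IDR at the own start, against 25.1% of all such genes. Among genes without one, 2 of 20 members (10%) did, against 6.82%. Split in this way, which was chosen after the data were seen, the members stood close to their background in both classes, and the interval for the first class ran from 15.3 to 40.3%. No test was made over the genes, because neighbours share a summit and members were chosen with results of these data known.

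The place of the summit within the shared intervals was compared with both starts. Of the 14 summits at divergent pairs, 12 fell between the 2 starts, and 11 (78.6%) were nearer to the neighbour's start than to the member's, with an exact 95% interval of 49.2 to 95.3%. In 6 of the 11 the difference between the 2 distances was more than 95 bp, and in 5 (mRpL18, mRpL24, mRpL34, mRpS10 and mRpS7) it was less. The largest shift of a summit between a replicate and the pool among these genes was 95 bp. Such a shift can change both distances at once, so a difference above 95 bp may also lie within it. Over all protein-coding genes with a divergent neighbour and such a summit, 451 of 957 were nearer to another gene (47.1%). Signed by the direction of the gene, 15 of the 16 summits were upstream of the own start and 1 downstream, from -394 to 60 bp with a median of -181 bp. For the 12 between divergent starts, lying upstream follows from that arrangement. The same share over all protein-coding genes is not given. Over all 26 genes, the strongest summit lay 1 to 198 bp from some protein-coding start (median 99.0 bp). The median was 127 bp for all 1214 peaks past IDR within 500 bp of a protein-coding TSS. For 21 of the 26 genes the nearest start belonged to another gene. Of these 21, 10 had a peak only away from their own start, counted through the 2000 bp around the gene. The same share over all protein-coding genes is not given.

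**Figure D2:**
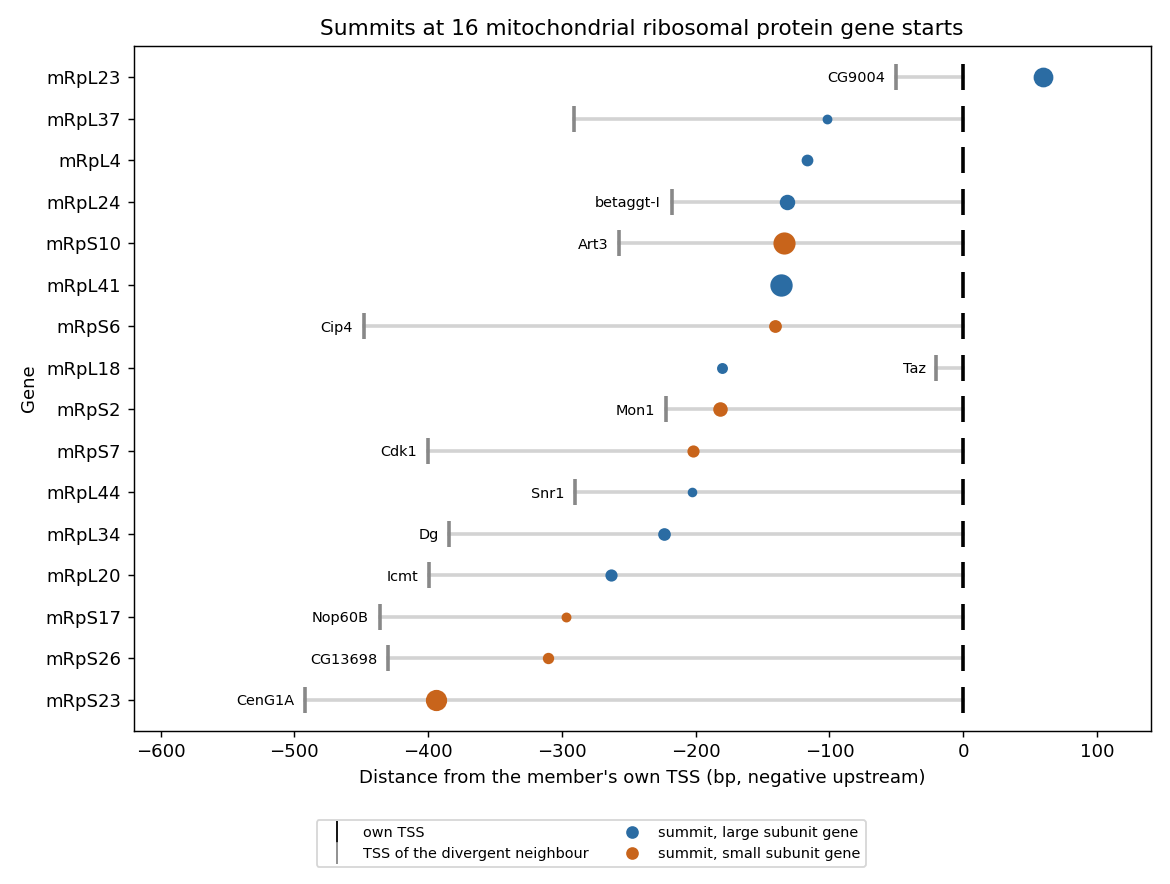
Position of the summit past IDR (dots, larger for higher signal value) at the 16 genes with one within 500 bp of an own start, in bp from the nearest own TSS, with the start of the divergent neighbour as a grey bar (not labelled at mRpL37). The 16 summits lie between -394 and 60 bp, and 12 of them sit between the 2 starts of a divergent pair.

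The strongest summits of the whole set stood at 4 genes and were strong in each replicate. At mRpL41 (2R, 15217024 to 15217617, minus strand), a large-subunit gene, the signal value was 716 (rank 6), with 381 in replicate 1 (rank 10) and 334 in replicate 3 (rank 5). The summit at 15217753 was intergenic, 136 bp upstream of the start, and the next start, that of CG8079, was 626 bp from it. It and mRpL4 were the 2 members with a summit past IDR at the own start and no divergent neighbour within 500 bp.

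At mRpS10 (3R, 15229665 to 15230516, plus strand), a small-subunit gene, the signal value was 693 (rank 7), with 399 and 291 in replicates 1 and 3 (rank 7 in each). Its summit at 15229531 lay nearly midway in the 257 bp between mRpS10 and Art3, which encodes an arginine methyltransferase, 134 bp from the start of mRpS10 and 123 bp from that of Art3. The distances differ by less than the shift of a summit between a replicate and the pool, which reached 95 bp among these genes.

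At mRpS23 (2L, 13834250 to 13835072, minus strand) the signal value was 590.2 (rank 17), with 340.1 in replicate 1 and 243 in replicate 3 (ranks 17 and 16). The summit at 13835466 was 394 bp from the start of mRpS23 and 98 bp from that of CenG1A, which encodes a GTPase-activating protein for Arf. At mRpL23 (3L, 2372844 to 2373704, minus strand) it was 455 (rank 36), with 250.2 in replicate 1 and 203 in replicate 3 (ranks 46 and 27). That summit, at 2373618, was the one inside the span of a member, in a 5′ untranslated region. It lay 60 bp downstream of the nearest of 3 annotated starts of mRpL23, whose outermost start is 24 bp from that of CG9004.

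**Figure D3:**
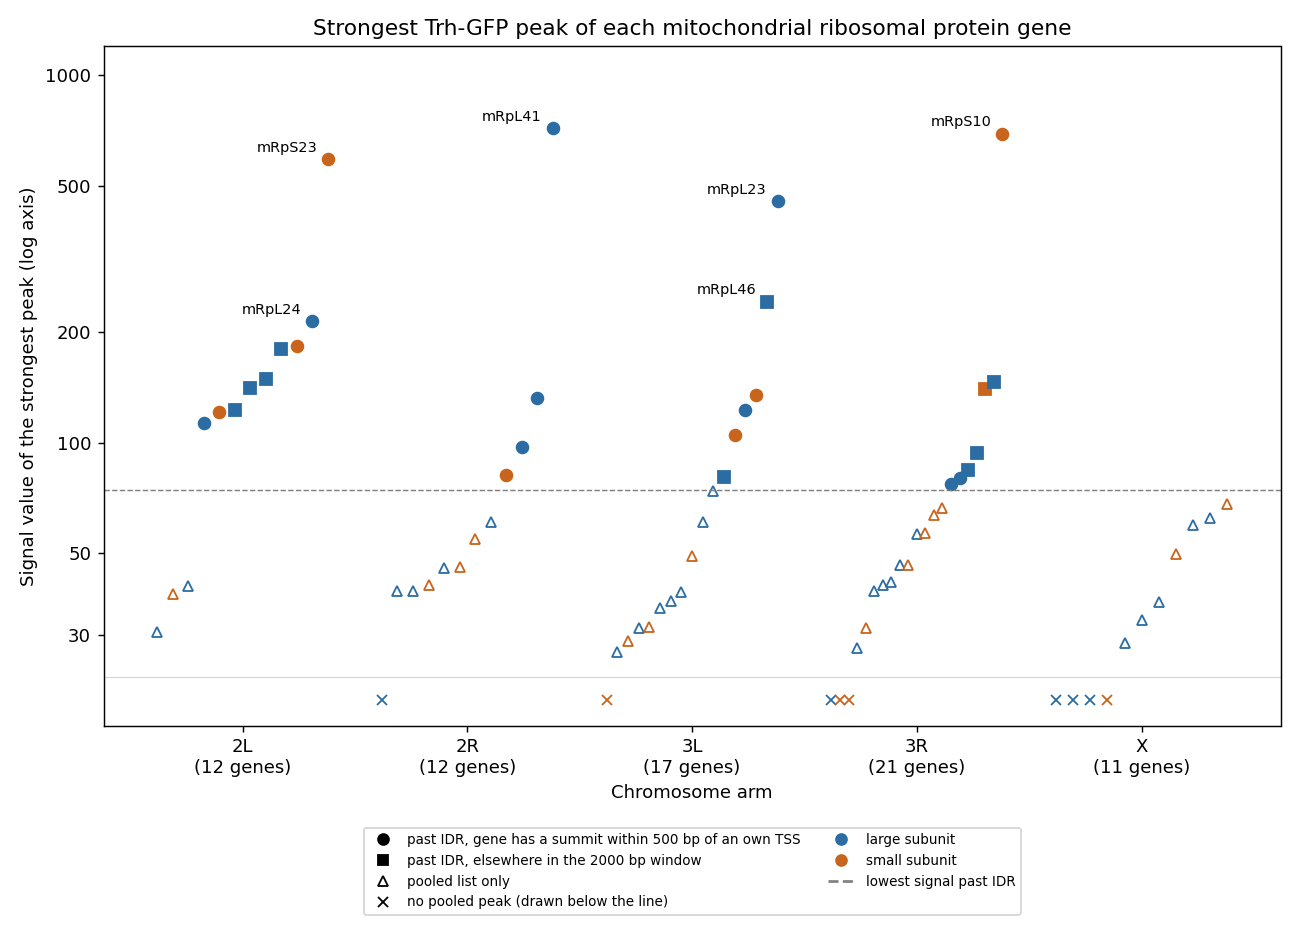
Signal value (log axis) of the strongest peak of the 64 genes with one by chromosome arm, with the other 9 as crosses under the grey line at the bottom. Symbols are filled where past IDR and open where only in the pooled list, with large-subunit genes in blue and small-subunit genes in orange. mRpL41, mRpS10, mRpS23 and mRpL23 stand apart at 455 to 716, the dashed line marks the lowest signal past IDR (74.4), and none of the 11 genes on X lies above it.

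Below these came 2 genes of chromosome arm 2L. At mRpL24 (4944256 to 4945361, minus strand) the signal value was 214 (rank 256), with 128 in replicate 1 and 86.7 in replicate 3 (ranks 273 and 248). The summit at 4945493 was 132 bp upstream, and 86 bp from the start of betaggt-I, which encodes a subunit of a protein geranylgeranyl transferase. At mRpS2 (4849439 to 4850419, minus strand) it was 183 (rank 387), with 106 and 83.9 in replicates 1 and 3 (ranks 450 and 275). Here the summit, at 4850601, was 182 bp upstream and 40 bp from the start of Mon1, which acts in endosome maturation. In both pairs the neighbour's start was the closer one.

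The next 6 signals lay between 105 and 135, near the median of the whole list. mRpS6 (3L, summit 4364409) had 135 (rank 741), with 82.5 and 50.4 in replicates 1 and 3 (ranks 753 and 850). Its summit was 141 bp upstream and 307 bp from the start of Cip4, a membrane-curving F-BAR protein, so it was nearest to mRpS6. mRpL34 (2R, summit 16098724) had 132 (rank 791), with 60.6 in replicate 1 and 60.3 in replicate 3 (ranks 1429 and 591), and the summit was nearer to Dg, the gene of dystroglycan (160 bp), than to mRpL34 (224 bp). mRpS7 (2L, summit 10386460) had 121 (rank 943), with 73.2 and 45.7 (ranks 971 and 1041). It shares its promoter with Cdk1, the kinase that drives mitosis, and the summit was 202 bp from the start of mRpS7 and 198 bp from that of Cdk1.

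mRpL20 was the member with 2 peaks past IDR. The summit at 13018130 (3L) had a signal of 122 (rank 930), with 73.7 in replicate 1 and 51.1 in replicate 3 (ranks 958 and 827), 263 bp upstream of mRpL20 and 136 bp from Icmt, a methyltransferase of prenylated proteins. The other, at 13015950, had 123 (rank 908), with 89.1 and 40.3 (ranks 639 and 1345), and lay beyond the 3′ end of mRpL20, 100 bp from the start of CG11267. mRpL4 (2L, 16328059 to 16329132, minus strand) had 113 (rank 1090), with 63.6 in replicate 1 and 54.9 in replicate 3 (ranks 1308 and 705). No other start was nearer than 676 bp, that of CG4440. mRpS26 (3L, summit 18106269) had 105 (rank 1259), with 51.4 and 49.1 (ranks 1960 and 903), 310 bp from its own start and 120 bp from that of CG13698.

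Among the 4 weakest summits at own starts, those of mRpL18 and mRpL37 each lacked a match in 1 replicate. mRpL18 (2R, summit 12756254) had 97.5 (rank 1449), with 70.3 in replicate 1 and no summit within 100 bp in replicate 3. The summit lay past the start of Taz, the gene of the cardiolipin enzyme tafazzin, in a 5′ untranslated region, and the 50 bp on each side of it had a GC content of 61.4%, the highest of the 16. mRpS17 (2R, summit 24174738) had 81.5 (rank 1988), with 33.9 and 23.5 in replicates 1 and 3 (ranks 4223 and 4143), next to Nop60B, which encodes a pseudouridine synthase. mRpL37 (3R, summit 10784194) had 80.0 (rank 2060), with none in replicate 1 and 32.3 in replicate 3, and was 102 bp upstream of its own start, the nearest to it. mRpL44 (3R, summit 5470839) had 77.3 (rank 2175), with 38.2 and 37.8 (ranks 3373 and 1512), and was nearer to Snr1, a subunit of the Brahma chromatin-remodelling complex (87 bp), than to mRpL44 (203 bp).

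The 10 genes whose peak was only away from their start had it at 1 to 129 bp from the start of another gene and 1259 to 3207 bp from their own. In 9 of them the summit was beyond the 3′ end, and at mRpL46 it was upstream. That of mRpL46 (3L, summit 1775554) was the strongest, at 242 (rank 195), with 131 and 115 in replicates 1 and 3 (ranks 254 and 126), 79 bp from PolD2, the gene of a DNA polymerase delta subunit. mRpL28 (2L, summit 4977183) had 179.7 (rank 403), with 125 and 53.7 (ranks 301 and 731), at the start of CG3792. mRpL27 (2L, summit 4458343) had 149 (rank 600), with 77.4 and 68.0 (ranks 864 and 456), and this summit was 1 bp from the start of RpL27A, a gene of the cytosolic ribosome. Of these 10, 8 also had a weaker summit of the pooled list within 500 bp of their own start, with signals of 36.6 to 71.1, the exceptions being mRpL40 and mRpL46. Over all protein-coding genes, 41.0% had a pooled summit of any strength at an own start.

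mRpL40 (3R, summit 11409955) had 146 (rank 630), with 78.3 and 65.2 in replicates 1 and 3 (ranks 842 and 506), at mgr, which encodes a prefoldin subunit. For mRpL13 (2L, summit 18857761) the values were 141 (rank 688), 83.6 and 54.5 (ranks 726 and 722). CG10602, whose start was 82 bp away, also has an annotated start that coincides with that of mRpL13 on the same strand. mRpS24 (3R, summit 24161692), the small-subunit gene among the 10, had 140.3 (rank 694), with 67.5 and 69.6 (ranks 1162 and 432), at TBC1d7. The signal assigned to mRpL51 (2L, summit 8514928) was 123 (rank 899), with 79.3 and 37.3 (ranks 821 and 1543), at CG13097.

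The last 3 of the group were weak. mRpL47 (3R, summit 9513146) had 94.0 (rank 1545), with 65.5 and 31.0 in replicates 1 and 3 (ranks 1236 and 2171), at Ras85D, the gene of the fly Ras GTPase. mRpL19 (3R, summit 8676788) had 84.1 (rank 1881), with 55.5 and 28.6 (ranks 1700 and 2531), at CG11755. mRpL50 (3L, summit 7241419) had 80.5 (rank 2029), with 37.3 and 39.5 (ranks 3515 and 1403), 68 bp from RpL18, again a gene of the cytosolic ribosome. The 2000 bp limit decided some of these: the summits of mRpL46, mRpL28 and mRpL51 lay 1885, 1867 and 1825 bp outside the gene, and the nearest left out were those of mRpL2, mRpL33 and mRpL36 at 2029, 2730 and 2792 bp.

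Between the replicates the members kept their broad order. For 25 of the 26 strongest peaks past IDR there was a summit within 100 bp in replicate 1, and for 25 in replicate 3. The summits shifted by a median of 12 bp. Over the 24 genes with a summit in both, log2 signal values had a Pearson correlation of 0.925 and a Spearman correlation of 0.774, given as a description because 4 genes lie far above the rest, the peaks were selected for signal in the pool, and both replicates were called against 1 shared control alignment. Taking from each replicate alone its 2322 strongest peaks, 25 members (34.2%) had a peak by the window rule in replicate 1, against 22.7% of all protein-coding genes, and 24 (32.9%) in replicate 3, against 21.5%.

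**Figure D4:**
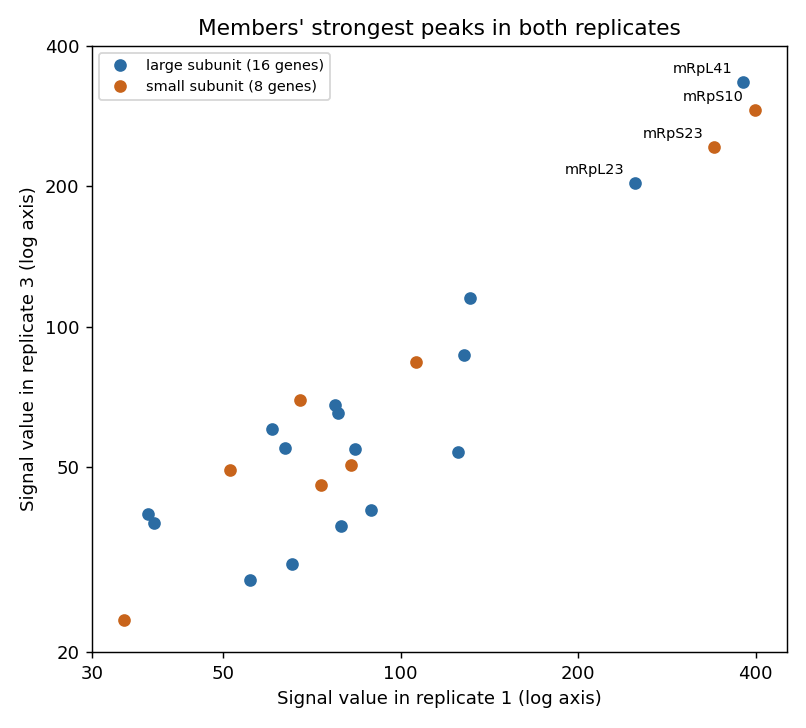
Signal value of the strongest peak past IDR in replicate 1 (x axis) and replicate 3 (y axis), both log axes, for the 24 members with a summit within 100 bp in both lists. mRpL41, mRpS10, mRpS23 and mRpL23 are apart at the upper right, while the others scatter (Spearman correlation 0.774 over the 24).

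By chromosome arm the shares were uneven. Peaks past IDR by the window rule were found for 9 of 12 members on 2L (75.0%, against 23.3% of all protein-coding genes there). The share was 4 of 12 on 2R (33.3%, against 21.0%), 6 of 17 on 3L (35.3%, against 24.4%) and 7 of 21 on 3R (33.3%, against 23.1%). The exact 95% interval for 2L ran from 42.8 to 94.5%, and those for 2R, 3L and 3R included their backgrounds. On 2L, mRpL13, mRpL27, mRpL28 and mRpL51 had their peak only at the start of another gene. On X the share was 0 of 11, against 20.3%, and the exact interval for 0 of 11 reached 28.5%, which includes that background. On the autosomes together it was 26 of 62 (41.9%), against 22.8%. At own starts the counts were 0 of 11 on X, against 9.34%, and 16 of 62 on the autosomes (25.8%), against 12.3%. This comparison was made after the counts by arm had been seen.

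Of the X-linked members, 7 of 11 (63.6%) had a divergent partner, against 25.8% of all protein-coding genes on X. Of those 7, 0 had a summit past IDR at the own start, against 16.1% of all X-linked genes with such a partner. The exact interval for 0 of 7 reached 41.0%, which includes that background. In the pooled list 1 of the 11, mRpS30, had a summit at an own start, against 38.8% of all protein-coding genes on X. Its exact interval, 0.230 to 41.3%, also includes the background. The strongest pooled peaks in the windows of the X-linked members were 68.1 at mRpS30 (rank 2693, with 44.3 and 23.1 in replicates 1 and 3) and 62.4 at mRpL22 (rank 3153, with 39.1 and 20.5), the second in an intron, 318 bp downstream of a start of the integrin gene if. mRpL16, mRpL3, mRpL33, mRpL49 and mRpS25 had pooled peaks of 28.6 to 59.7.

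Among divergent members, the distance to the partner's start differed with the presence of a summit, with wide overlap, and the difference was not tested. It was 20 to 492 bp (median 338 bp) for the 14 with a summit past IDR at the own start, and 21 to 499 bp (median 192 bp) for the 39 without. Up to 200 bp, 2 of 22 members had a summit, against 17.2% of all divergent genes so spaced. From 200 to 350 bp it was 5 of 13, against 33.2%, and from 350 to 500 bp 7 of 18, against 25.3%. The counts of members per class are small, and over all divergent genes the share was highest in the middle class. The 2 members with a summit in the closest class were mRpL23 and mRpL18, whose summits lay outside the interval between the starts.

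**Figure D5:**
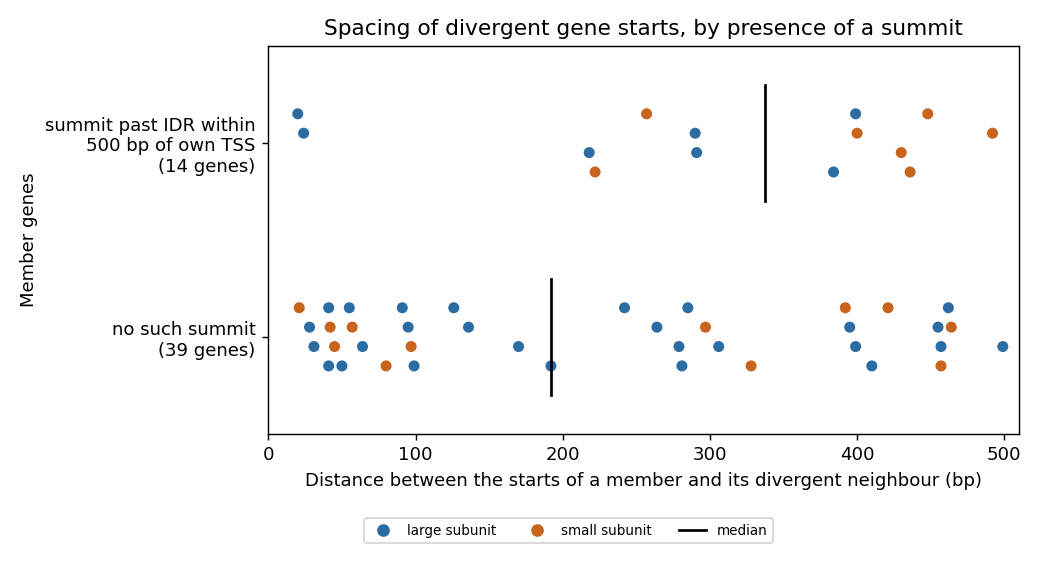
Distance in bp between the start of a member and that of its divergent neighbour, for the 14 members with a summit past IDR at the own start (upper row) and the 39 without (lower row), each dot a gene and each line a median. The medians are 338 and 192 bp, and the rows reach from 20 to 492 bp and from 21 to 499 bp.

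Of the genes with pooled peaks only, 26 of 38 had a summit within 500 bp of an own start. The same share over all genes with pooled peaks only is not given. Over all protein-coding genes, with or without a peak, 41.0% had a pooled summit at an own start. The strongest signals of the 38 ran from 26.9 to 73.8 with a median of 41.0. The highest, mRpL21 (3L, summit 19255288), had 73.8 (rank 2362), just under the weakest peak past IDR at 74.4, with 46.5 in replicate 1 and 26.2 in replicate 3. It lay between mRpL21 (227 bp) and rept, which encodes the ATPase reptin (52 bp), the same arrangement as at the peaks past IDR. After mRpS30, the next were mRpS9 (3R, 66.6, rank 2799, with 44.8 and 19.3 in replicates 1 and 3), in an intron within the span of mRpS9, 173 bp upstream of the start of wtrw, and mRpS21 (3R, 63.6, rank 3047, with 42.0 and 17), in a 5′ untranslated region 210 bp from the start of Droj2, a chaperone gene. mRpL22 followed. In none of these 5 was the summit nearest to the member's own start.

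The remaining genes with pooled peaks only are named by arm with the range of their strongest signal. They were mRpL10, mRpL48 and mRpS18B on 2L (30.6 to 40.8) and mRpL42, mRpL43, mRpL53, mRpL54, mRpS16, mRpS28 and mRpS29 on 2R (39.4 to 60.8). On 3L they were mRpL2, mRpL12, mRpL15, mRpL17, mRpL36, mRpL39, mRpS5, mRpS31 and mRpS35 (26.9 to 60.9), and on 3R mRpL1, mRpL9, mRpL11, mRpL35, mRpL45, mRpL55, mRpS18A, mRpS18C and mRpS22 (27.6 to 56.8).

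No pooled peak was found in the window of 9 genes. They were mRpL14, mRpL30, mRpL38 and mRpS14 on X, mRpL32, mRpS11 and mRpS33 on 3R, mRpS34 on 3L and mRpL52 on 2R. Of these, 6 have a divergent neighbour: HLH4C at 457 bp for mRpL30, CG11674 at 410 bp for mRpL38, Naa15-16 at 21 bp for mRpS14, qless at 264 bp for mRpL32, Ns1 at 57 bp for mRpS11 and CG12107 at 50 bp for mRpL52. Over all members 53 of 73 (72.6%) have one, against 27.4% of all protein-coding genes. Depth is unknown, so a missing peak is not shown to be an absence of binding.

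The other genes that the annotation links to this ribosome by an older name, and that the naming rule leaves out, had no peak past IDR. They were tko (mRpS12), with a pooled peak of 37.0 at 62 bp upstream of its start, bonsai (mRpS15), with one of 49.9 at 2430 bp downstream of its start, and CG4866 (mRpS4), with none.

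Other genes that serve mitochondrial gene expression were taken from a written list of 33 names with aliases, of which 7 matched no symbol and the others gave 22 genes. A peak past IDR by the window rule was found for 5 of 22 (22.7%), close to the background of 22.4%, and for 3 of 22 at an own start (13.6%), close to 11.8%. PNPase, an RNA-degrading enzyme, had the strongest at 619.6 (rank 13), 69 bp upstream of its start. mtSSB, which binds single-stranded mitochondrial DNA, had 178 at 332 bp upstream, and SLIRP1, an RNA-binding protein gene, had 169 at 223 bp upstream. The peaks of mTerf5 (289) and mRF1 (94.7) were at the starts of CG7988 and Ski6. The polymerase PolrMT, the DNA-packaging factor TFAM and the elongation factor genes mEFTu1, mEFTu2, mEFTs and mEFG1 were among 15 with pooled peaks only, and mTTF and mtTFB1 had none.

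The sequence under the summits was low in G and C. Over the 16 summits at own starts the median GC content of the summit base and 50 bp on each side was 27.7%, against 31.7% at the 1198 other peaks past IDR within 500 bp of a protein-coding TSS. ACGTG was found at 1 of 16 (6.25%), that of mRpL20, against 7.68% at the others, and at 3 of 16 (18.8%) when 100 bp on each side were searched. For that wider search no share at the others is given. TACGTG and CACGTG, which both contain ACGTG, were found at 0 of 16, against 2.34 and 1.25% at the others. At shares that low, 0 of 16 is too small a count to tell whether either is rarer there. CGATA was found at 2 (12.5%), mRpL34 and mRpS17, against 21.9%, TATAAA at 4 (25%), against 24.5%, and GAGAG, the core bound by GAGA factor, at 1 (6.25%), against 8.76%. GTATNTTT was found at 3 (18.8%), mRpL41, mRpL44 and mRpS26, against 5.51%. That share rests on 3 summits, 11 sequences were searched, and the difference was not tested. GGTCACACT, CGCANGCG and CCGGAAG were found at 0 of 16, against 0.835, 0.584 and 0.668%. All were searched on both strands, and a match is only a match of letters.

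TATCGATA, a palindrome that contains CGATA, was present in the promoters of 15 of 73 members (20.5%), from 250 bp before to 50 bp after the start, against 9.36% of all protein-coding promoters. It was found around 0 of the 16 summits, against 3.59% of the other promoter peaks. At a share that low, 0 of 16 is too small a count to tell whether the element is rarer there. Its 16 matches in member promoters lay at -205 to 27 bp from the start, with a median of -5.50 bp. The searched window is narrower than the 500 bp allowed for a summit. Member promoters with a summit past IDR held it in 3 of 16 (18.8%), against 14.1% of all protein-coding promoters with one. Member promoters without a summit held it in 12 of 57 (21.1%). The 3 were mRpL4, mRpL20 and mRpS23, with the element 140 bp from the summit at mRpL4, 257 bp at mRpL20, and 189 and 389 bp at mRpS23, which has it at 2 places.

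The other sequences were counted in the same 300 bp promoters. CGATA was in 43 of 73 (58.9%), against 47.4%, ACGTG in 18 (24.7%), against 23.2%, TACGTG in 4 (5.48%), against 5.63%, and CACGTG in 5 (6.85%), against 4.20%. GTATNTTT was in 13 (17.8%), against 14.9%, and TATAAA in 34 (46.6%), against 45.8%. GAGAG was in fewer, 12 of 73 (16.4%), against 29.7%, and CGCANGCG and CCGGAAG were in 1 and 0, against 2.77 and 1.09%. GGTCACACT was in 8 (11.0%), against 6.05%, all of them among the 57 promoters without a summit past IDR. Over all protein-coding promoters with such a summit its share was 8.25%. At a share that low, 0 of 16 member promoters is too small a count to tell whether the sequence is rarer there. The median GC content of the promoters was 34.7% for members, against 38.0% for all protein-coding genes, and its part in these shares was not tested.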

How the data were processed

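Peak lists of 1 group with 2 biological replicates, in narrowPeak layout, were used for dm6. Per the deposited file lists, each replicate and the pool were called against 1 shared control alignment, and a list past an IDR threshold was derived from them. The aligner and the peak caller are not stated, and the IDR threshold is not given in the sources used. Each peak's signal value is a score the authors deposited. The deposited −log10 q values ran from 2.80 to 3.48 in the list past IDR. These lists hold no read depth, so depth is unknown. The dm3 lists were not used here, and no table column lacked a sample (0).

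Summits (1-based) were joined to 13945 protein-coding genes of the Ensembl BDGP6.54 annotation (release 115) on 6 chromosome arms, by span with 2000 bp on each side or by distance to any annotated TSS (500 bp). A replicate summit matched within 100 bp. Motifs were searched on both strands within 50 bp of summits and in promoters. Members and lists were chosen with earlier results of these data known, so shares stand beside those of all protein-coding genes without a test. Named with full values are the 12 members with the highest and the 4 with the lowest summit at an own start, those with 2 or more peaks, up to 10 with the strongest peak nearer another gene (here the 10 with none at their own start), the 5 strongest with pooled peaks only, and those with none. The counting steps were tested on simulated data. Python 3.11.15, numpy 2.4.6, pandas 2.3.3 and scipy 1.17.1 were used. Other distances, assignments, thresholds and single replicates were tried as alternatives. The neighbour of 1 member, mRpL37, is not reported here.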

Additional observations from a re-analysis of the deposited data

How the results depend on the processing

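Of 59 alternative values for 11 results, 41 stayed within the range set by counting error and 18 moved. With 0 bp around the gene in place of 2000 bp, the share with a peak past IDR was 1.37% of members (2.13% of large-subunit, 0% of small-subunit and 4.55% of the other mitochondrial gene expression genes), against 7.02% of all protein-coding genes. With 500 bp it was 24.7% of members (23.4% of large-subunit genes), against 16.4%. Giving each peak to the nearest start left 8.22% (10.6% of large-subunit and 3.85% of small-subunit genes), against 13.0%, which put the members below the background. Keeping only the 1161 strongest peaks past IDR gave 24.7%, against 12.9%. The whole pooled list gave 87.7% (89.4% of large-subunit, 84.6% of small-subunit and 90.9% of the other mitochondrial genes) and 68.5% at own starts. Within 100 bp of an own start the share was 1.37%, against 3.43%, and a partner start within 250 bp in place of 500 bp was found for 35.6%. The share of summits with ACGTG ran from 0 to 13.3% when 1 replicate was left out. No paired analysis was possible because there is 1 group. Peaks shared by 2 genes cannot be told apart by gene in these lists, and depth, which sets which weak summits are called, is unknown.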
